A study of Mus musculus with 9 samples.

Results

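The genes of sterol and fatty acid synthesis in regulatory T cells (Tregs) are described here, with those of sterol uptake and efflux and their regulators. The set is a list of 37 gene symbols chosen by function, and all 37 were found among the 23992 gene symbols of the expression tables. It holds 17 enzymes of the mevalonate and sterol pathway, 11 of fatty acid synthesis, elongation and desaturation, 3 genes of sterol uptake and efflux, and 6 regulators. Cells make cholesterol from acetyl-CoA through mevalonate, isoprenoid pyrophosphates, squalene and lanosterol, and they make fatty acids from the same acetyl-CoA by carboxylation, chain building, elongation and desaturation. The membrane-bound factors SREBP1 (gene Srebf1) and SREBP2 (gene Srebf2) switch on most of these enzymes after the escort protein Scap carries them out of the endoplasmic reticulum, where the Insig proteins hold them while sterol is plentiful. The liver X receptors respond to oxysterols and switch on the cholesterol exporters Abca1 and Abcg1. In T cells, stimulated growth is known to draw on newly made lipid, and the mevalonate pathway is known to be needed for Treg function.

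The cells were BALB/c mouse Tregs with the spleen as labelled source, marked with a green fluorescent protein (GFP) linked to Foxp3. All of them, the untreated controls included, carried, by transduction, an IL-2 receptor beta chain of orthogonal design (oIL-2Rβ) with a human EGFR tag, an altered chain that pairs with a matching altered ("ortho") IL-2. All had also been expanded for 48 hours with CD3/CD28 beads in 1000 IU/mL human IL-2, isolated by the tag, and starved of IL-2 overnight. The groups then received ortho IL-2 at 2000000 IU/mL, wild-type (WT) IL-2 at 20000 IU/mL, or no IL-2 for 4 hours, with 3 libraries each, so both cytokines were tested on a background of earlier bead and IL-2 exposure and at different doses. The question was how the transcriptome answers the engineered and the natural cytokine. The growth protocol label describes a different assay, a co-culture, and no label states whether the 3 libraries of a group are separate cultures or animals. The p-values thus speak of the spread among these libraries alone, which could be technical.

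The libraries held 16581624 to 58182835 reads in genes. Levels are given as TMM-scaled RPKM (reads scaled by transcript length and by the reads in genes of each library, with the TMM factors of edgeR), here called RPKM, as mean ± SD over 3 libraries. The 8 T cell and Treg markers were all expressed, with summed levels of 2733 to 2750 RPKM with ortho IL-2, 2753 to 2777 with WT IL-2 and 2267 to 2298 without IL-2. Each of the lists for B cells, myeloid cells, CD8 T and NK cells, and erythroid and stromal cells had 1 of its 4 genes at a testable level. The summed level of the myeloid list was 1.57 to 1.65 with ortho IL-2, 1.36 to 1.72 with WT IL-2 and 2.14 to 2.79 without IL-2, with 0 to 3 reads per library for Lyz2 and 0 to 1 for Csf1r, the rest being mostly Itgam (1.24 to 2.65). That of the erythroid and stromal list was 65.4 to 68.5, 66.5 to 67.8 and 83.8 to 87.9 in the same group order, and lay almost wholly in Pecam1 (64.7 to 87.4), which T cells also express. The other lists reached 2.71 to 3.55 for B cells and 4.89 to 6.79 for CD8 T and NK cells. The part of these levels in the results was not tested. In bulk RNA, fewer cells of a type and less RNA per cell cannot be told apart. Of the reads behind each library's scaling, the share outside the transcripts taken for the genes was 29.4 ± 3.64% with ortho IL-2, 31.7 ± 2.96% with WT IL-2 and 40.5 ± 2.43% without IL-2 (SD, n = 3 each). It was 9.91 percentage points lower in the 6 stimulated libraries (two-sided exact permutation p = 0.02381), and leaving out any of the 3 libraries without IL-2 raised p to 0.07143, the smallest that those numbers of libraries allow. Its part in the results was not tested beyond a fit with the share as a covariate, in which 10 of 21 called genes of the set were still called with ortho IL-2 and 14 of 22 with WT IL-2, all with the same sign. Over all 10702 tested genes that fit called 926 higher and 648 lower with ortho IL-2, against 3054 and 2936 without the covariate. With WT IL-2 it called 1217 and 914, against 2675 and 2447. The share goes with the groups, so the fit cannot tell its part from that of IL-2. A call lost there is thus not in itself a result about the gene.

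The first WT IL-2 library and the third ortho IL-2 library stood apart from the others of their groups. Genes with a transcript GC content of at least 58% had a median log2 deviation from the group mean of 0.17 in ortho IL-2 replicate 3 and of 0.24 in WT IL-2 replicate 1, against -0.15 to 0.01 in the other 7 libraries. The GC-rich genes of the set, Nr1h2 (60.6%), Mvk (59.6%), Scap (59.1%), Mvd (59.0%), Srebf1 (58.4%), Srebf2 (57.9%) and Fasn (57.9%), are described with these libraries named. Without both, all 21 called genes of the set were still called with ortho IL-2 and all 22 with WT IL-2.

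Genes were tested where the deposited RPKM reached 1 in at least 3 of the 9 libraries, and a gene is said to have risen or fallen where the edgeR quasi-likelihood test gave an adjusted p below 0.05 over all 10702 genes tested. This left 34 of the 37 members. Mvd and Hsd17b7 passed this filter only through libraries with IL-2. Their deposited RPKM stayed below 1 in the controls (lowest values 0.727 and 0.546), so the filter favoured a rise for them. Both genes kept their calls with no filter on low values. Acaca also needed libraries with IL-2 to pass, since its lowest deposited RPKM, 0.948, was in a control library. It likewise kept its calls with no filter on low values. The sterol reductase gene Tm7sf2 and the desaturase genes Scd1 and Fads2 were too low to be tested.

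With ortho IL-2, 15 of the 34 tested members rose and 6 fell relative to no IL-2. The background was large, since 56.0% of all tested genes were called, 28.5% of them higher and 27.4% lower as shares of all tested, against 61.8% of the members. With WT IL-2, 16 members rose and 6 fell, or 64.7%, against 47.9% of all tested genes, of which the higher made up 25.0% and the lower 22.9% of those tested. A share of calls near the background is not in itself a result about the set, and what follows is the size and direction of each step. The median log2 fold change of the tested members was 0.24 with ortho IL-2 and 0.25 with WT IL-2, beside 0.01 over all tested genes in both comparisons. The comparisons share the same 3 libraries without IL-2, so their values are given side by side and not as independent evidence. Side by side, 14 members were higher and 6 lower in both, and 11 passed in neither. The remaining 3 passed in a single comparison, Ebp with ortho IL-2 and Cyp51 and Stard4 with WT IL-2. Members at least 2-fold higher were the same 3 in both comparisons, Elovl6, Mvd and Fasn, and no member was 2-fold lower. Mvd is among those that the filter let in only through libraries with IL-2.

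**Figure D1:**
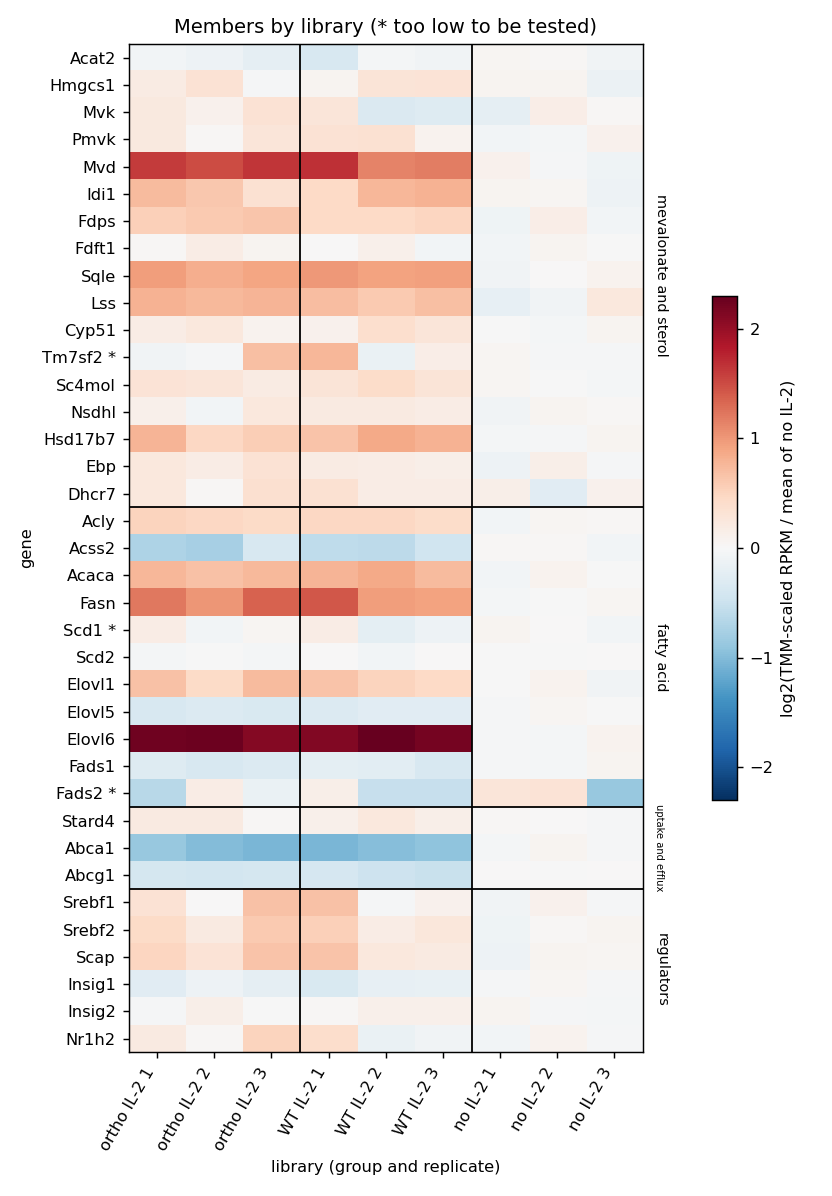
Level of the 37 genes (rows, by branch) in each of the 9 libraries (columns), as the log2 ratio of TMM-scaled RPKM to the mean of the 3 libraries without IL-2; an asterisk marks the 3 genes too low to be tested. Elovl6 (log2 fold change 2.20 with ortho IL-2 and 2.21 with WT IL-2) has the largest rise and Abca1 (-0.97 and -0.98) the largest fall among the tested members.

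The early mevalonate steps moved little and the step that makes isopentenyl pyrophosphate moved most. In the whole mevalonate and sterol branch, 8 of 16 tested genes (50%) rose in each comparison and 0 fell. Of all tested genes, 28.5% rose and 27.4% fell with ortho IL-2, and 25.0% and 22.9% with WT IL-2. Mvd and Hsd17b7 are among the 8 and entered the test only through libraries with IL-2. With offsets for GC content Mvk was lower with WT IL-2, Hmgcs1 was higher in both comparisons, and Cyp51 was higher with ortho IL-2 too. Median log2 fold changes of the branch were 0.24 for ortho IL-2 and 0.26 for WT IL-2. The first enzymes of the pathway did not pass the test. Acat2, the cytosolic thiolase that joins acetyl-CoA units, was at 4.14 ± 0.203 RPKM with ortho IL-2, 4.05 ± 0.482 with WT IL-2 and 4.51 ± 0.205 without IL-2, and its reads cannot be told safely from those of its near copy Acat3 (1.09 to 1.46 RPKM). Hmgcs1, which makes HMG-CoA, was at 19.3 ± 2.38, 20 ± 1.92 and 17.1 ± 1.31 RPKM in the same order. Its log2 fold changes of 0.16 with ortho IL-2 and 0.22 with WT IL-2 missed the threshold (edgeR adjusted p = 0.197 and 0.0965). With offsets for GC content both were 0.29 and passed (edgeR adjusted p = 0.00321 and 0.00295). Hmgcs1 passed without both libraries that stand apart, at 0.25 (edgeR adjusted p = 0.00709) and 0.30 (0.0032), without ortho IL-2 replicate 3 alone (0.26, adjusted p = 0.0479) and without WT IL-2 replicate 1 alone (0.30, adjusted p = 0.0302). The mevalonate kinase Mvk was low, at 2.77 ± 0.219, 2.24 ± 0.571 and 2.38 ± 0.301 RPKM (66 to 294 reads). Its log2 fold changes were 0.23 and -0.08 (edgeR adjusted p = 0.29 and 0.747), and with offsets for GC content -0.14 (0.326) and -0.35, which passed (adjusted p = 0.0271). The phosphomevalonate kinase Pmvk was at 4.46 ± 0.395, 4.70 ± 0.469 and 3.94 ± 0.242 RPKM, with log2 fold changes of 0.20 (edgeR adjusted p = 0.173) and 0.26 (0.084), and passed with WT IL-2 without WT IL-2 replicate 3 (0.34, adjusted p = 0.0438).

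Mvd, the decarboxylase that ends the mevalonate segment (chromosome 8, 122433596 to 122443422, minus strand, GRCm38), rose the most of the branch, in a test it entered only through libraries with IL-2. It had 3.93, 3.63 and 4.01 RPKM with ortho IL-2, 4.13, 2.83 and 2.93 with WT IL-2, and 1.39, 1.27 and 1.21 without IL-2. Every stimulated library lay above every library without IL-2. The increase was 2.97-fold with ortho IL-2 (log2 fold change 1.57, SE 0.16, edgeR adjusted p = 2.82e-05) and 2.54-fold with WT IL-2 (1.34, SE 0.16, adjusted p = 8.69e-05). Among the WT IL-2 libraries the highest value was that of replicate 1, which is high in GC-rich genes, and without both libraries that stand apart the log2 fold changes were 1.54 and 1.14. The count rests on 37 to 444 reads per library, and the transcript with most reads was annotated as non-coding.

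The next steps, which isomerise isopentenyl pyrophosphate and join it into farnesyl pyrophosphate, the branch point to sterols and to protein prenylation, rose by smaller amounts. The isomerase gene Idi1 had 8.26, 7.65 and 6.42 RPKM with ortho IL-2, 6.85, 8.45 and 8.69 with WT IL-2, and 5.25, 5.16 and 4.61 without IL-2. All stimulated libraries were higher than the controls, and the lowest of each stimulated group were ortho IL-2 replicate 3 and WT IL-2 replicate 1. It rose 1.48-fold with ortho IL-2 (log2 fold change 0.56, SE 0.12, edgeR adjusted p = 0.00318) and 1.59-fold with WT IL-2 (0.67, SE 0.12, adjusted p = 0.00127). The synthase gene Fdps had 8.13, 8.44 and 8.61 RPKM with ortho IL-2, 7.63, 7.58 and 7.82 with WT IL-2, and 5.17, 6.17 and 5.27 without IL-2. Here too the groups with and without IL-2 did not overlap. Fdps rose 1.51-fold with ortho IL-2 (0.60, SE 0.09, adjusted p = 0.000297) and 1.38-fold with WT IL-2 (0.47, SE 0.09, adjusted p = 0.00156). With the covariate for reads outside genes these calls were lost (log2 fold changes 0.48 and 0.38, edgeR adjusted p = 0.119 and 0.124), and the exons of Fdps overlap another annotated gene on the same strand.

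In the squalene segment, the committed step to sterols did not pass the test and the following steps did. Fdft1, which makes squalene, was at 10.8 ± 0.611 RPKM with ortho IL-2, 10.3 ± 0.620 with WT IL-2 and 10.1 ± 0.413 without IL-2. Sqle, the squalene epoxidase and a rate-limiting oxygen-using step (chromosome 15, 59315092 to 59331193, plus strand), had 8.05, 7.44 and 7.77 RPKM with ortho IL-2, 8.34, 7.93 and 7.98 with WT IL-2, and 3.93, 4.16 and 4.38 without IL-2. The groups with and without IL-2 lay far apart for Sqle, with little spread in each. It rose 1.87-fold with ortho IL-2 (log2 fold change 0.90, SE 0.07, edgeR adjusted p = 3.68e-06) and 1.95-fold with WT IL-2 (0.96, SE 0.07, adjusted p = 2.36e-06). Lss, which closes the epoxide into lanosterol, had 4.13, 3.96 and 4.07 RPKM with ortho IL-2, 3.85, 3.57 and 3.82 with WT IL-2, and 2.07, 2.23 and 2.80 without IL-2. The control libraries of Lss were the more spread, and all lay below the stimulated ones. Its rises were 1.73-fold with ortho IL-2 (0.79, SE 0.11, adjusted p = 0.000206) and 1.60-fold with WT IL-2 (0.68, SE 0.11, adjusted p = 0.000622), and with the covariate for reads outside genes the ortho IL-2 value was 0.75 and just missed the threshold (adjusted p = 0.0511).

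The steps from lanosterol to cholesterol gave smaller changes. Cyp51, the lanosterol demethylase, had 6.20, 6.52 and 5.78 RPKM with ortho IL-2, 5.87, 7.20 and 6.65 with WT IL-2, and 5.43, 5.29 and 5.73 without IL-2. Its groups nearly touch, with ortho IL-2 replicate 3 and WT IL-2 replicate 1 just above the highest control library. The WT IL-2 rise was 1.20-fold (log2 fold change 0.26, SE 0.08, edgeR adjusted p = 0.0269), and the ortho IL-2 value of 0.17 did not pass (adjusted p = 0.113). With offsets for GC content the ortho IL-2 value was 0.23 and passed (edgeR adjusted p = 0.0184). With the covariate for reads outside genes the WT IL-2 value was 0.29 and no longer passed (adjusted p = 0.237). The WT IL-2 call was lost on leaving out WT IL-2 replicate 2 (0.19, adjusted p = 0.093), WT IL-2 replicate 3 (0.25, 0.0647), no IL-2 replicate 1 (0.25, 0.0796) or no IL-2 replicate 2 (0.24, 0.0873), and without both libraries that stand apart Cyp51 passed in both comparisons (0.22 and 0.34, edgeR adjusted p = 0.0201 and 0.00193).

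Sc4mol, named Msmo1 in RefSeq, oxidises the methyl groups removed next from the sterol ring. It had 13.3, 13.0 and 12.2 RPKM with ortho IL-2, 13.1, 14.4 and 13.1 with WT IL-2, and 11.0, 10.7 and 10.4 without IL-2. Each stimulated library was above each control library. Sc4mol rose 1.19-fold with ortho IL-2 (log2 fold change 0.25, SE 0.07, edgeR adjusted p = 0.00913) and 1.26-fold with WT IL-2 (0.33, SE 0.07, adjusted p = 0.00242). Its calls were lost with the covariate for reads outside genes, at 0.30 and 0.37 (edgeR adjusted p = 0.21 and 0.0628). Its partner in this demethylation, the dehydrogenase Nsdhl, did not pass, at 5.63 ± 0.604 RPKM with ortho IL-2, 6.02 ± 0.0923 with WT IL-2 and 5.24 ± 0.272 without IL-2.

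Hsd17b7, the ketone reductase of the same demethylation, had 1.73, 1.41 and 1.49 RPKM with ortho IL-2, 1.60, 1.85 and 1.76 with WT IL-2, and 0.981, 0.994 and 1.06 without IL-2. It was low throughout and entered the test only through libraries with IL-2, and its stimulated libraries again lay above the controls. Hsd17b7 rose 1.54-fold with ortho IL-2 (log2 fold change 0.62, SE 0.11, edgeR adjusted p = 0.00103) and 1.72-fold with WT IL-2 (0.78, SE 0.11, adjusted p = 0.000245). With the covariate for reads outside genes the ortho IL-2 value was 0.75 and missed the threshold (adjusted p = 0.0567). Ebp, the sterol isomerase, had 18.8, 17.8 and 19.8 RPKM with ortho IL-2, 18, 17.8 and 17.3 with WT IL-2, and 14.5, 17.4 and 15.5 without IL-2. Its WT IL-2 and control values overlapped. The ortho IL-2 rise of 1.19-fold (0.25, SE 0.07, adjusted p = 0.0171) was lost with the covariate for reads outside genes, where it was 0.07 (adjusted p = 0.822). It was also lost without ortho IL-2 replicate 3 (0.21, edgeR adjusted p = 0.0644), no IL-2 replicate 1 (0.19, 0.0701) or no IL-2 replicate 3 (0.24, 0.0527). The WT IL-2 value for Ebp was 0.16 (edgeR adjusted p = 0.103), and 0.24 without no IL-2 replicate 2 (adjusted p = 0.0255). Dhcr7, which performs the last reduction to cholesterol, was at 3.55 ± 0.409, 3.56 ± 0.259 and 3.03 ± 0.423 RPKM with ortho, WT and no IL-2, with log2 fold changes of 0.24 and 0.23 (adjusted p = 0.136 and 0.151). The reductase gene Tm7sf2 was near the detection limit for testing, at 0.882, 0.909 and 1.5 RPKM with ortho IL-2, 1.58, 0.839 and 1.03 with WT IL-2, and 0.958, 0.915 and 0.910 without IL-2.

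**Figure D2:**
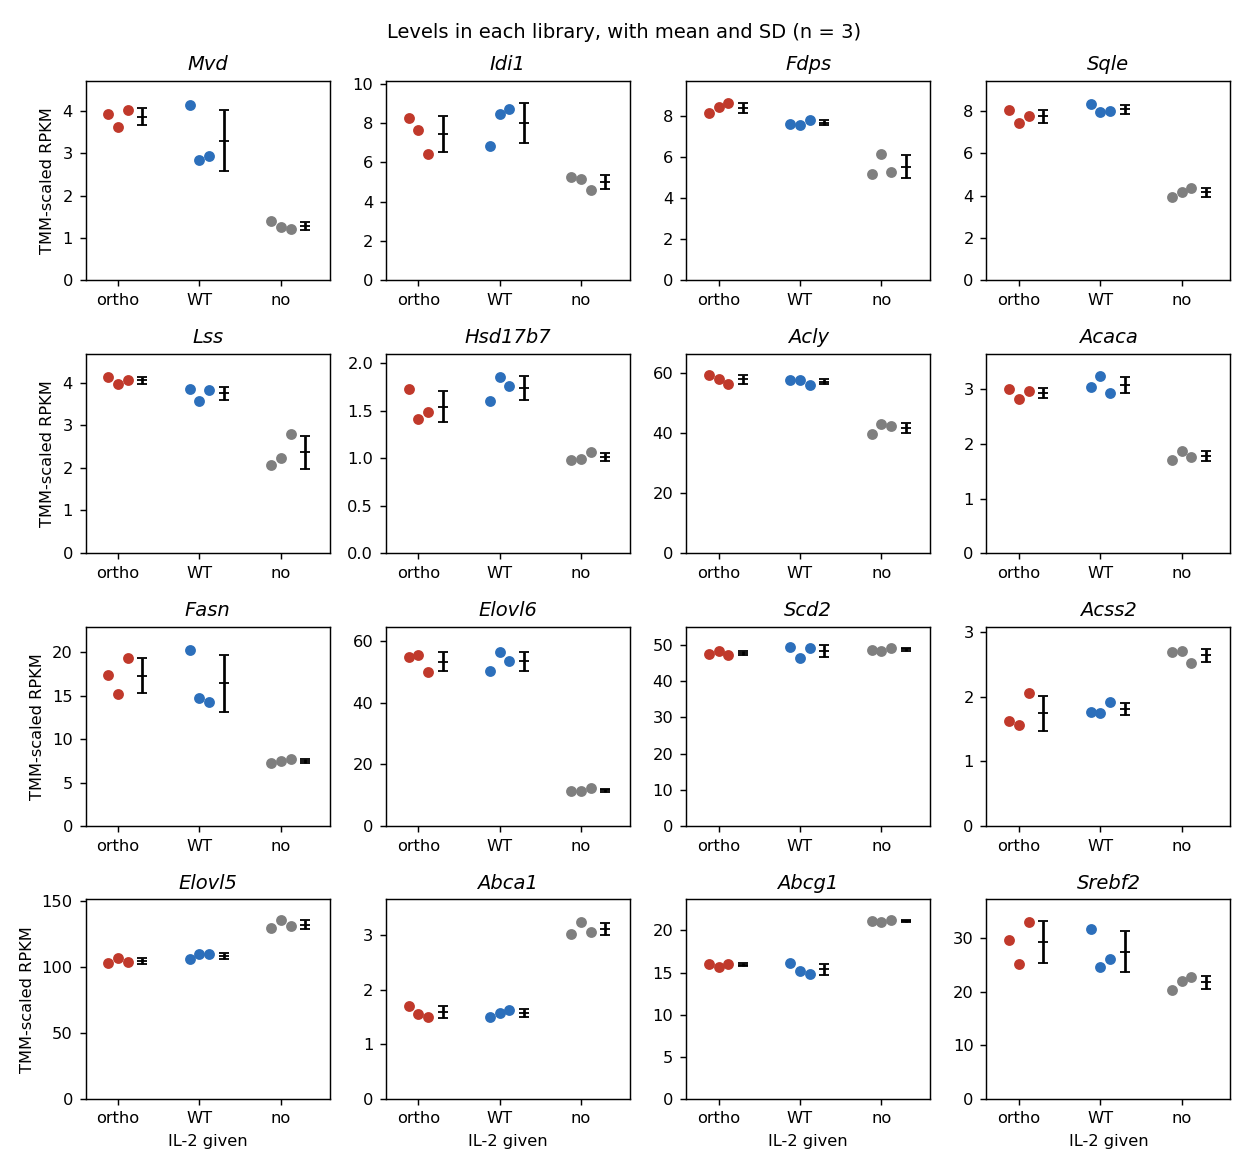
Level (TMM-scaled RPKM) of 16 of the genes with ortho IL-2, WT IL-2 and no IL-2; each dot is a library and the line with its bar is the mean ± SD of 3 libraries. In every panel but that of Scd2, no control library lies within the range of the stimulated ones, and the Scd2 libraries all lie between 46.5 and 49.3. The genes drawn, Scd2 apart, all passed in both comparisons, so the choice favours such gaps. Members with overlapping groups, such as Ebp, Srebf1, Nr1h2 and Insig2, are not drawn. Of all tested genes 56.0% were called with ortho IL-2 and 47.9% with WT IL-2, and how many separate in this way was not counted.

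Genes of the fatty acid branch moved in both directions. All tested genes had 28.5% higher and 27.4% lower with ortho IL-2, and 25.0% and 22.9% with WT IL-2. Of the 9 tested genes of the fatty acid branch, 5 (55.6%) rose and 3 (33.3%) fell in both comparisons. Their median log2 fold changes were 0.47 for ortho IL-2 and 0.46 for WT IL-2. The 5 that rose were Acly, Acaca, Fasn, Elovl1 and Elovl6, and the 3 that fell were Acss2, Elovl5 and Fads1. Acaca needed libraries with IL-2 to pass the filter. All 3 falls lost their calls without scaling between libraries. Whether direction goes with the step of the pathway was not tested. Acly, which splits citrate into the acetyl-CoA used for both lipid pathways, had 59.4, 57.9 and 56.4 RPKM with ortho IL-2, 57.7, 57.7 and 56.1 with WT IL-2, and 39.7, 42.9 and 42.4 without IL-2. The stimulated libraries lay together, clear of the controls. Acly rose 1.39-fold with ortho IL-2 (log2 fold change 0.47, SE 0.04, edgeR adjusted p = 1.47e-05) and 1.37-fold with WT IL-2 (0.46, SE 0.04, adjusted p = 2e-05). Acss2, the other source of cytosolic acetyl-CoA, which activates acetate, had 1.62, 1.56 and 2.06 RPKM with ortho IL-2, 1.76, 1.75 and 1.92 with WT IL-2, and 2.69, 2.71 and 2.53 without IL-2. All 3 controls exceeded all stimulated libraries. Acss2 fell to 66.6% of the control level with ortho IL-2 (-0.59, SE 0.12, adjusted p = 0.00247) and to 68.3% with WT IL-2 (-0.55, SE 0.12, adjusted p = 0.00401), and its exons overlap genes on the opposite strand. The ortho IL-2 call for Acss2 was lost with the covariate for reads outside genes (-0.77, adjusted p = 0.0776), and both without scaling between libraries (-0.24 in each, limma adjusted p = 0.0962 and 0.103).

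The carboxylase and synthase that build palmitate both rose. Acaca, which makes malonyl-CoA, had 3.01, 2.83 and 2.97 RPKM with ortho IL-2, 3.05, 3.24 and 2.94 with WT IL-2, and 1.70, 1.87 and 1.76 without IL-2. The groups did not overlap and each was narrow. The lowest deposited RPKM of Acaca, 0.948 in a control library, lay below the limit of the filter. Acaca rose 1.65-fold with ortho IL-2 (log2 fold change 0.72, SE 0.07, edgeR adjusted p = 1.28e-05) and 1.73-fold with WT IL-2 (0.79, SE 0.07, adjusted p = 7.2e-06). Fasn, the fatty acid synthase (chromosome 11, 120805958 to 120825166, minus strand), had 17.4, 15.2 and 19.3 RPKM with ortho IL-2, 20.2, 14.7 and 14.3 with WT IL-2, and 7.30, 7.47 and 7.74 without IL-2. The highest value of each stimulated group came from the libraries high in GC-rich genes, ortho IL-2 replicate 3 and WT IL-2 replicate 1, and the lowest stimulated value was still well above the highest control. Fasn rose 2.31-fold with ortho IL-2 (1.21, SE 0.13, adjusted p = 4.51e-05) and 2.18-fold with WT IL-2 (1.13, SE 0.13, adjusted p = 7.42e-05). Without both libraries its log2 fold changes were 1.13 and 0.95, and with offsets for GC content 0.88 and 0.89.

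Elovl6, which lengthens palmitate to stearate (chromosome 3, 129532386 to 129638495, plus strand), changed most of the 34 tested members. It had 54.7, 55.4 and 49.9 RPKM with ortho IL-2, 50.4, 56.5 and 53.5 with WT IL-2, and 11.3, 11.2 and 12.2 without IL-2. The stimulated groups overlapped each other and were both far from the controls. Elovl6 rose 4.61-fold with ortho IL-2 (log2 fold change 2.20, SE 0.06, edgeR adjusted p = 6.76e-09) and 4.62-fold with WT IL-2 (2.21, SE 0.06, adjusted p = 6.89e-09), on 1191 to 17644 reads per library.

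The other elongases moved in opposite directions. Elovl1, which makes very long saturated chains, had 20.6, 17.5 and 21.4 RPKM with ortho IL-2, 20.4, 18.4 and 17.7 with WT IL-2, and 12.8, 13.7 and 12.2 without IL-2. No control library reached the stimulated range. Elovl1 rose 1.54-fold with ortho IL-2 (log2 fold change 0.62, SE 0.09, edgeR adjusted p = 0.000278) and 1.46-fold with WT IL-2 (0.54, SE 0.09, adjusted p = 0.00073), and its exons overlap those of the cell cycle gene Cdc20 on the opposite strand. Both Elovl1 calls were lost with the covariate for reads outside genes (0.50 and 0.44, edgeR adjusted p = 0.105 and 0.0749). Elovl5, which lengthens polyunsaturated chains, was the most abundant member, with 103, 107 and 104 RPKM with ortho IL-2, 106, 110 and 110 with WT IL-2, and 130, 136 and 131 without IL-2. Its controls were all higher than its stimulated libraries. It fell to 79.2% of the control level with ortho IL-2 (-0.34, SE 0.04, adjusted p = 7.56e-05) and to 82.3% with WT IL-2 (-0.28, SE 0.04, adjusted p = 0.000279). Without scaling between libraries the Elovl5 values were -0.06 and -0.07 and did not pass (limma adjusted p = 0.507 and 0.482), on a scale where the median of all tested genes was shifted by 0.26 and 0.20.

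Among the desaturases, Fads1, which desaturates polyunsaturated chains and so acts beside Elovl5, had 11.5, 10.9 and 11.3 RPKM with ortho IL-2, 12, 11.9 and 10.9 with WT IL-2, and 13.8, 13.7 and 14.7 without IL-2. Its controls were again the highest libraries. Fads1 fell to 80% of the control level with ortho IL-2 (log2 fold change -0.32, SE 0.06, edgeR adjusted p = 0.00108) and to 82.5% with WT IL-2 (-0.28, SE 0.06, adjusted p = 0.00285). The ortho IL-2 call was lost with the covariate for reads outside genes (-0.40, adjusted p = 0.0592), and both without scaling between libraries (-0.04 and -0.06, limma adjusted p = 0.688 and 0.584). Its neighbour Fads2 was at 0.463 ± 0.125, 0.431 ± 0.123 and 0.519 ± 0.204 RPKM with ortho, WT and no IL-2, on 7 to 42 reads, and was not tested. Scd2, which introduces the double bond of oleate and is the main stearoyl-CoA desaturase expressed here, had 47.4, 48.3 and 47.3 RPKM with ortho IL-2, 49.3, 46.5 and 49.1 with WT IL-2, and 48.7, 48.4 and 49.1 without IL-2. The ortho IL-2 libraries of Scd2 lay just below the controls and the WT IL-2 libraries spanned them, and the log2 fold changes were -0.03 with ortho IL-2 and -0.01 with WT IL-2 (SE 0.04, edgeR adjusted p = 0.517 and 0.801). Without scaling between libraries these values turned to 0.24 and 0.20 (limma adjusted p = 0.013 and 0.0391), on the shifted scale named for Elovl5. Scd1 was at 1.33 ± 0.108, 1.24 ± 0.180 and 1.28 ± 0.0497 RPKM, too low to be tested, and reads of the near copies Scd3 (1.03 to 1.41 RPKM) and Scd4 (0.532 to 1.09 RPKM) may be shared with it.

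**Figure D3:**
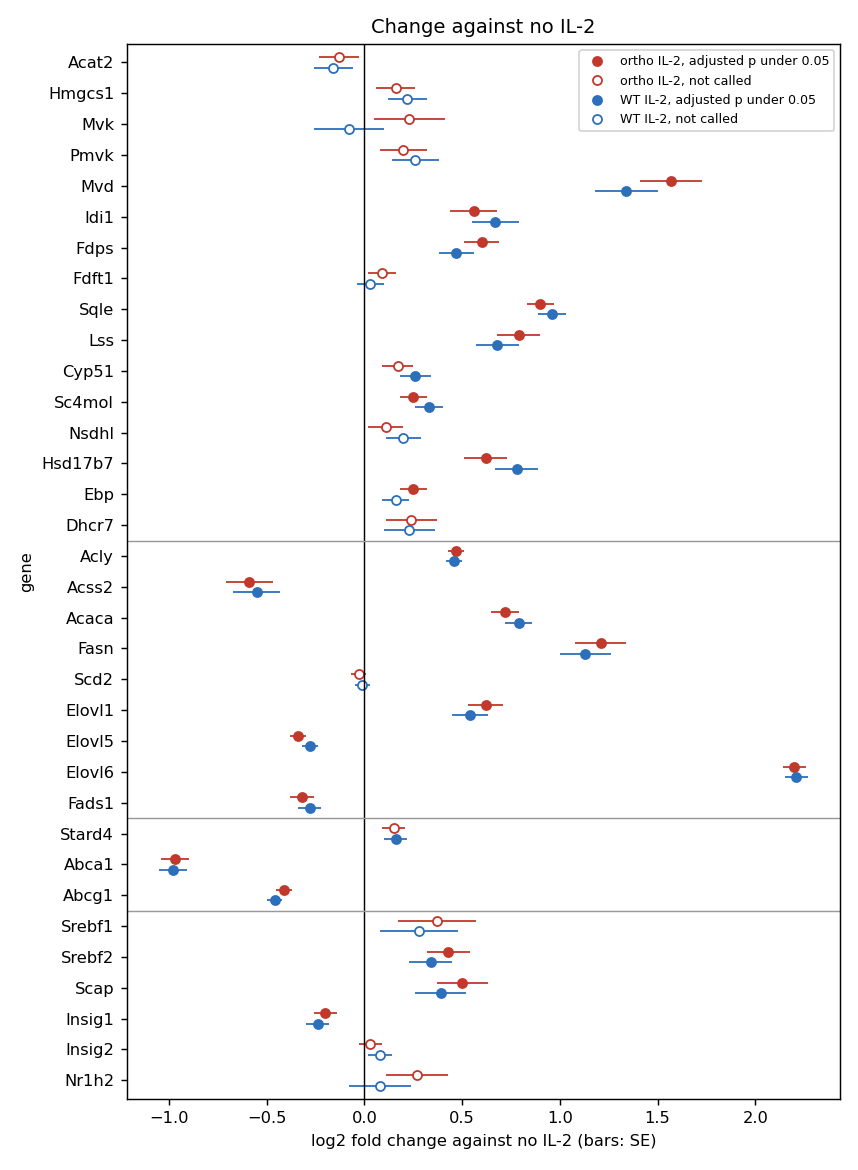
Log2 fold change ± SE of the tested members against no IL-2, with ortho IL-2 (red) drawn above WT IL-2 (blue) for each gene; filled symbols mark an edgeR adjusted p below 0.05. All filled symbols of the mevalonate and sterol branch lie right of 0, while Acss2, Elovl5, Fads1, Abca1, Abcg1 and Insig1 lie left of it for both cytokines.

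The cholesterol exporters fell. Abca1, which moves cholesterol to lipid-poor apolipoproteins at the cell surface (chromosome 4, 53030789 to 53159988, minus strand), had 1.70, 1.56 and 1.49 RPKM with ortho IL-2, 1.5, 1.58 and 1.63 with WT IL-2, and 3.02, 3.23 and 3.06 without IL-2. The gap between stimulated and control libraries was many times the spread within them. Abca1 fell to 50.9% of the control level with ortho IL-2 (log2 fold change -0.97, SE 0.07, edgeR adjusted p = 2.81e-06) and to 50.6% with WT IL-2 (-0.98, SE 0.07, adjusted p = 2.66e-06), the largest fall among the tested members. Abcg1, which exports cholesterol to high-density lipoprotein, had 16.0, 15.7 and 16.0 RPKM with ortho IL-2, 16.1, 15.2 and 14.8 with WT IL-2, and 21.1, 21.0 and 21.2 without IL-2. Again no library of the stimulated groups reached the controls. Abcg1 fell to 75.4% of the control level with ortho IL-2 (-0.41, SE 0.04, adjusted p = 3.72e-05) and to 72.9% with WT IL-2 (-0.46, SE 0.04, adjusted p = 1.74e-05). Without scaling between libraries its ortho IL-2 value was -0.13 and did not pass (limma adjusted p = 0.199).

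Stard4, which carries cholesterol between membranes, had 25.7, 25.5 and 22.7 RPKM with ortho IL-2, 24.1, 26.2 and 24.2 with WT IL-2, and 22.6, 22.2 and 21.7 without IL-2. The lowest stimulated library, ortho IL-2 replicate 3, lay next to the highest control. The WT IL-2 rise of 1.12-fold lay at the threshold (log2 fold change 0.16, SE 0.06, edgeR adjusted p = 0.0465) and the ortho IL-2 value of 0.15 just missed it (adjusted p = 0.0561). Without ortho IL-2 replicate 1, ortho IL-2 replicate 2, either of WT IL-2 replicates 2 and 3, or any control library, the WT IL-2 call was lost (0.12 to 0.18, adjusted p = 0.0526 to 0.144). With the covariate for reads outside genes it was lost as well (0.24, adjusted p = 0.156). The ortho IL-2 value passed once ortho IL-2 replicate 3 was left out (0.21, edgeR adjusted p = 0.0131), and likewise for WT IL-2 replicate 1 (0.15, adjusted p = 0.0468). With offsets for GC content the ortho IL-2 value was 0.26 and passed (edgeR adjusted p = 0.000505).

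Among the regulators, the transcripts of Srebf2 and Scap rose and that of Insig1 fell, all by less than 1.5-fold, and 3 of 6 did not pass in either comparison. The 50% called in each stands beside 56.0% of all tested genes with ortho IL-2 and 47.9% with WT IL-2. The median log2 fold change of the 6 was 0.32 with ortho IL-2 and 0.18 with WT IL-2. Srebf2 had 29.7, 25.2 and 33.0 RPKM with ortho IL-2, 31.8, 24.6 and 26.1 with WT IL-2, and 20.4, 22.1 and 22.8 without IL-2. No control library reached the stimulated ones, and the libraries high in GC-rich genes were the highest of their groups. Srebf2 rose 1.35-fold with ortho IL-2 (log2 fold change 0.43, SE 0.11, edgeR adjusted p = 0.00942) and 1.27-fold with WT IL-2 (0.34, SE 0.11, adjusted p = 0.0312). Both calls were lost with offsets for GC content (0.10 and 0.11, adjusted p = 0.0797 and 0.0686) and with the covariate for reads outside genes (0.24 and 0.19, adjusted p = 0.553 and 0.547), and the WT IL-2 call also without WT IL-2 replicate 1 (0.22, adjusted p = 0.0914) or no IL-2 replicate 1, 2 or 3 (0.29, 0.35 and 0.37, adjusted p = 0.113, 0.0706 and 0.0546).

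Scap had 17.6, 15.5 and 19.5 RPKM with ortho IL-2, 19.7, 14.7 and 14.4 with WT IL-2, and 11.4, 13.0 and 12.9 without IL-2. It showed the same order of libraries as Fasn within the stimulated groups, and these did not overlap the controls. Scap rose 1.41-fold with ortho IL-2 (log2 fold change 0.50, SE 0.13, edgeR adjusted p = 0.00779) and 1.31-fold with WT IL-2 (0.39, SE 0.13, adjusted p = 0.0278). With offsets for GC content the values were 0.14 and 0.13 (adjusted p = 0.0303 and 0.0393). Both calls were lost with the covariate for reads outside genes (0.23 and 0.18, adjusted p = 0.616 and 0.62). The WT IL-2 call was lost without WT IL-2 replicate 1 (0.23, adjusted p = 0.0665) or no IL-2 replicate 1, 2 or 3 (0.33, 0.42 and 0.42, edgeR adjusted p = 0.107, 0.0541 and 0.0553).

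Insig1, itself a well-known target of the SREBP factors whose product retains them, had 14.8, 16.2 and 15.2 RPKM with ortho IL-2, 13.8, 15.4 and 15.6 with WT IL-2, and 17.3, 18.3 and 17.3 without IL-2. All controls were above all stimulated libraries by a small margin. It fell to 87.1% of the control level with ortho IL-2 (log2 fold change -0.20, SE 0.06, edgeR adjusted p = 0.0216) and to 84.6% with WT IL-2 (-0.24, SE 0.06, adjusted p = 0.01). The ortho IL-2 call was lost without ortho IL-2 replicate 1 (-0.17, adjusted p = 0.0802), ortho IL-2 replicate 3 (-0.19, 0.062) or no IL-2 replicate 2 (-0.17, 0.0786). Both calls were lost with the covariate for reads outside genes (-0.23 and -0.26, edgeR adjusted p = 0.336 and 0.15), and both with no filter on low values (-0.13 and -0.19, edgeR adjusted p = 0.201 and 0.073). Without scaling between libraries its ortho IL-2 value turned to 0.08, below the 0.26 of the median gene, and its WT IL-2 value was -0.03 (limma adjusted p = 0.451 and 0.808). Insig2, which holds the factors in the same way, had 14.8, 16.5 and 14.9 RPKM with ortho IL-2, 15.2, 16.3 and 16.2 with WT IL-2, and 15.7, 14.7 and 14.6 without IL-2. The Insig2 groups overlapped, with log2 fold changes of 0.03 and 0.08 (edgeR adjusted p = 0.655 and 0.274).

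Srebf1 had 14.4, 11.6 and 18.4 RPKM with ortho IL-2, 18.2, 11.2 and 12.3 with WT IL-2, and 10.9, 12.3 and 11.2 without IL-2. Nr1h2, the widely expressed liver X receptor, had 29.8, 26.5 and 37.1 RPKM with ortho IL-2, 34.4, 23.4 and 24.4 with WT IL-2, and 24.8, 27.4 and 25.6 without IL-2. For both genes the highest values of the stimulated groups were those of ortho IL-2 replicate 3 and WT IL-2 replicate 1, ortho IL-2 replicate 1 also lay above the controls, and the other stimulated libraries lay within or below the control range. Srebf1 had log2 fold changes of 0.37 and 0.28 with ortho and WT IL-2 (SE 0.20, edgeR adjusted p = 0.129 and 0.268), or 0.19 and 0.03 without both libraries. Its ortho IL-2 value passed without ortho IL-2 replicate 2 (0.52, adjusted p = 0.0457) and also without WT IL-2 replicate 1 (0.38, adjusted p = 0.0391). Nr1h2 had 0.27 and 0.08 (SE 0.16, edgeR adjusted p = 0.164 and 0.686), or 0.12 and -0.12 without both libraries. Its ortho IL-2 value passed without WT IL-2 replicate 1 (0.27, adjusted p = 0.0475), and its WT IL-2 value turned negative and passed with offsets for GC content (-0.19, adjusted p = 0.00781).

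The promoter sequences of the genes with the largest changes are shown because the SREBP factors act together with NF-Y at many of these genes, and IL-2 signals through STAT5. RefSeq promoter windows of the GRCm38.p6 assembly, from 250 bases before to 50 after an annotated start, were found for 29 of the 37 members and searched on both strands for an SRE core (TCACNCCAC), an E-box (CACGTG), an NF-Y box (CCAAT) and a STAT5 site (TTCNNNGAA). Elovl6, Fasn and Mvd are the 3 members that at least doubled, Abca1 fell most, and Hmgcs1 was the only member whose window held the SRE core. Each window is given 5′ to 3′ on the strand of its gene, with any match to the 4 motifs in capitals.
Elovl6: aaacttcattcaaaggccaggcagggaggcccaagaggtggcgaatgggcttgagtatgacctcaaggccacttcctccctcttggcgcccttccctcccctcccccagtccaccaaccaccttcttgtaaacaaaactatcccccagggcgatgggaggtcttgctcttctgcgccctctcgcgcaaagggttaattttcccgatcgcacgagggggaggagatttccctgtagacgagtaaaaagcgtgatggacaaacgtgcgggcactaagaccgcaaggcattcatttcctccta
Fasn: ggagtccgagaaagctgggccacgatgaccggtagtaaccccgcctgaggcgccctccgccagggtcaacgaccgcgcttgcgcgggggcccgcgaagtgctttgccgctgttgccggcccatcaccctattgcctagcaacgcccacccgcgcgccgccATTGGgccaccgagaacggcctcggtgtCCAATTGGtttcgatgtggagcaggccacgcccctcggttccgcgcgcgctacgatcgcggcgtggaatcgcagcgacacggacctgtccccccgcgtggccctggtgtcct
Mvd: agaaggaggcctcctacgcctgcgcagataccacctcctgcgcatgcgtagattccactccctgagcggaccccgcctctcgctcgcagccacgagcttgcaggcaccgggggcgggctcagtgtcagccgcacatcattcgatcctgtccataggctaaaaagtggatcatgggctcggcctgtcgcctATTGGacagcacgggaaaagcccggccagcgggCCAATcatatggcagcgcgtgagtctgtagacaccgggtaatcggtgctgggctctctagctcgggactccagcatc
Abca1: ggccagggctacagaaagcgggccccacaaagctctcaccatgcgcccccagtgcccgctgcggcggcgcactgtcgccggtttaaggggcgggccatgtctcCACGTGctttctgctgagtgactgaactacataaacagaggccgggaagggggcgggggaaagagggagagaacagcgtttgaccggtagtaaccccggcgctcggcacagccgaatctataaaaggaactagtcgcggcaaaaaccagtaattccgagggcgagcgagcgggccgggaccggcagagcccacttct
Hmgcs1: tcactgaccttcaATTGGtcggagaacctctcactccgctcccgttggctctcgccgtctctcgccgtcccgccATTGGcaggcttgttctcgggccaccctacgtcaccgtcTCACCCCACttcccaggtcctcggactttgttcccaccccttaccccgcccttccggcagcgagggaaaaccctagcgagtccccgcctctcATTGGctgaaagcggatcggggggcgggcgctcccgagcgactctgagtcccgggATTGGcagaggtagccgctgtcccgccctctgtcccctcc
The Elovl6 window, at chr3:129532136-129532435 on the plus strand, held none of the 4 motifs. The Fasn window (chr11:120824498-120824797, minus strand) held 3 NF-Y boxes, with its start at that of a GENCODE M21 transcript but 619 bases inside the outer bound of the RefSeq gene, given above, which covers all transcript models. For Abca1 that distance is 93 bases, and for Elovl6, Mvd and Hmgcs1 it is 0. The Mvd window (chr8:122443373-122443672, minus strand) held 2 NF-Y boxes. The Abca1 window (chr4:53159846-53160145, minus strand) held a single E-box. The Hmgcs1 window (chr13:119690101-119690400, plus strand) held 1 SRE core and 4 NF-Y boxes.

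Over the members with a window, the NF-Y box was the common motif. It was in 13 of 14 windowed genes of the mevalonate and sterol branch, 5 of 8 of the fatty acid branch and 4 of 6 regulators, beside 37.4% of all 32851 windows. An E-box was in 6 of the 29 genes (7.15% of all windows), a STAT5 site in 1, Ebp (8.30%), and the SRE core in 1 (1.24%). Some genes have several windows, each of which could hold a match, and some windows start far inside the outer bound of their gene (65803 bases for Acaca). By response, the NF-Y box was in 9 of 12 windowed genes higher in both comparisons, 3 of 4 lower in both and 7 of 9 that passed in neither. The E-box was in 2 of 12, 3 of 4 and 1 of 9 of the same groups. A match is a string of letters and not a measured binding site.

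The cytokines were then set against each other directly. No member differed between ortho IL-2 and WT IL-2 by the edgeR test (smallest adjusted p = 0.909, smallest unadjusted p = 0.106), and 0% of the 10702 tested genes passed. None of the members had an unadjusted p under 0.05 with edgeR or DESeq2, while 149 of all tested genes did with edgeR and 114 with DESeq2, where again 0 passed after adjustment. The log2 difference was positive for 18 members and negative for 16. The doses differed, at 2000000 IU/mL of ortho IL-2 and 20000 IU/mL of WT IL-2, so the test compares the conditions used and not equal amounts of cytokine.

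A p that misses the threshold does not show that the responses were alike, and the 95% intervals give the sizes that remain possible. The interval lay within 1.3-fold in either direction for 28 of 34 members and within 1.5-fold for 33 of 34. For Elovl6 the ratio of ortho to WT IL-2 was 0.997 (95% interval 0.908 to 1.09), on levels of 53.3 ± 2.99 and 53.5 ± 3.03 RPKM. For Mvd it was 1.17 (0.937 to 1.46), on 3.86 ± 0.197 and 3.30 ± 0.724 RPKM. The exception to the wider limit was the low gene Mvk, at 1.24 (0.947 to 1.63), whose level was 2.77 ± 0.219 RPKM with ortho IL-2 and 2.24 ± 0.571 with WT IL-2. Mvd and Mvk are GC-rich, and their WT IL-2 libraries spread with replicate 1 as described above for Mvd.

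**Figure D4:**
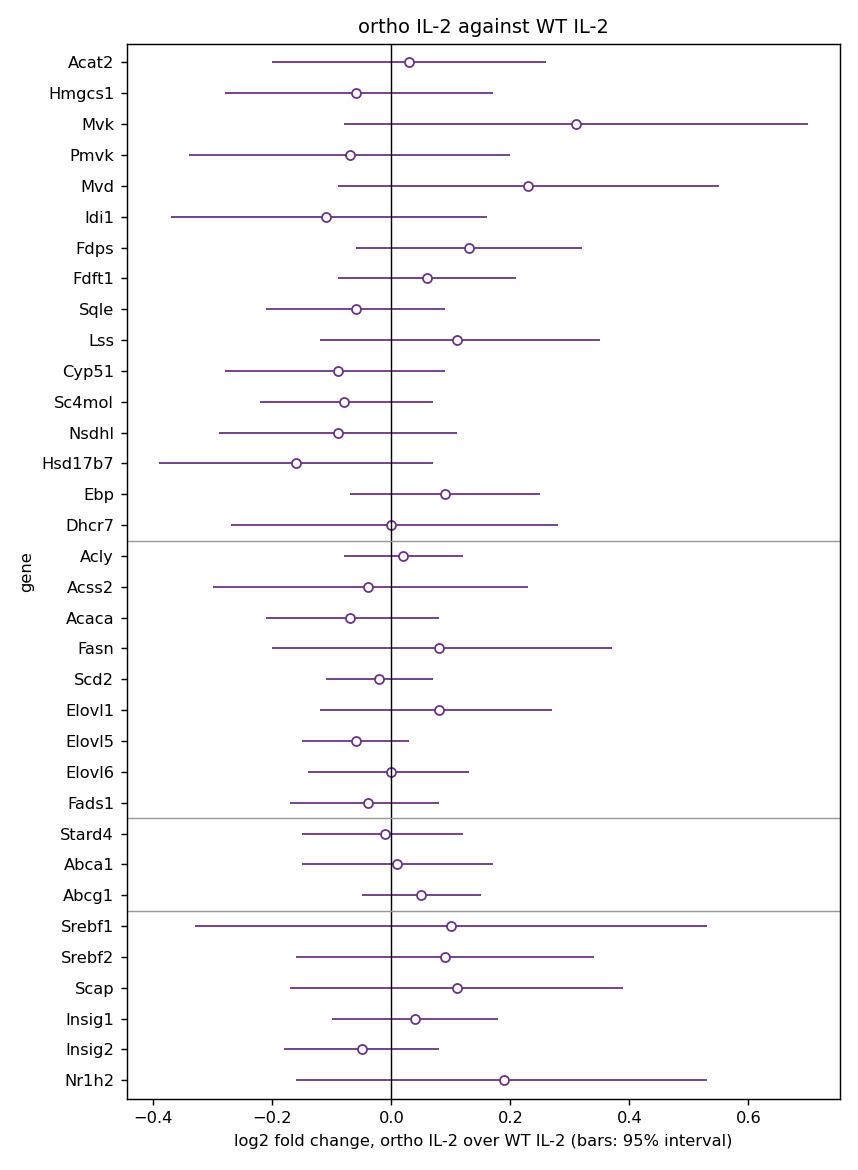
Log2 ratio of ortho IL-2 to WT IL-2 for the 34 tested members, with 95% intervals from the edgeR fit over all 9 libraries. Every interval includes 0, and the widest belong to Srebf1 (0.10, interval -0.33 to 0.53), Mvk and Nr1h2, all GC-rich.

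Genes related to the set by function were described from lists chosen for their roles. Of 18 tested genes of sterol handling and SREBP control, 8 rose and 5 fell with ortho IL-2 and 8 rose and 4 fell with WT IL-2, with medians of 0.11 and 0.04. With ortho IL-2 that is 44.4% higher and 27.8% lower, beside 28.5% and 27.4% of all tested genes. With WT IL-2 it is 44.4% and 22.2%, beside 25.0% and 22.9%. Rxra, the partner receptor of the liver X receptors, was at 8.85 ± 0.146 RPKM with ortho IL-2, 8.49 ± 0.689 with WT IL-2 and 4.24 ± 0.0885 without IL-2, a rise of 2.09-fold and 2.01-fold (edgeR adjusted p = 7.08e-07 and 1.06e-06). Cyb5, the cytochrome that passes electrons to sterol and fatty acid oxidases, rose 1.41-fold and 1.42-fold, at 246 ± 7.49, 247 ± 16.7 and 174 ± 5.94 RPKM in the same order (adjusted p = 5.52e-05 and 5.23e-05). Ube2g2, a ubiquitin-conjugating enzyme of endoplasmic reticulum degradation, rose as well, at 17.4 ± 0.871, 17.4 ± 0.788 and 13.9 ± 0.746 RPKM (0.33 in both, adjusted p = 0.00209 and 0.00228). Mbtps1, the protease that makes the first cut in the SREBP proteins, fell, at 37.1 ± 0.991, 35.7 ± 1.20 and 43.5 ± 1.35 RPKM in the same order (log2 fold changes -0.23 and -0.28, adjusted p = 0.00197 and 0.00057). Soat1, which esterifies cholesterol for storage, also fell, at 27.2 ± 1.08, 27.2 ± 0.656 and 31.4 ± 1.3 RPKM (-0.21 in both, adjusted p = 0.00485 and 0.00539). The lysosomal cholesterol carrier Npc2 was lower too, at 118 ± 6.06, 121 ± 9.96 and 147 ± 5.16 RPKM (-0.32 and -0.28, edgeR adjusted p = 0.00257 and 0.0063).

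Of 17 further genes of fatty acid synthesis and activation, 7 rose and 3 fell with ortho IL-2 and 6 rose and 3 fell with WT IL-2, with medians of 0.19 and 0.10. With ortho IL-2 that is 41.2% higher and 17.6% lower, beside 28.5% and 27.4% of all tested genes. With WT IL-2 it is 35.3% and 17.6%, beside 25.0% and 22.9%. The fatty acid carrier Fabp5 rose to 59.2 ± 4.12 RPKM with ortho IL-2 and 60.6 ± 4.74 with WT IL-2, against 12.5 ± 0.622 without IL-2 (4.74-fold and 4.86-fold, edgeR adjusted p = 2.52e-08 and 2.05e-08). The acyl-CoA synthetases Acsl1 and Acsl5, which activate fatty acids, rose 1.55-fold and 1.37-fold with ortho IL-2 (adjusted p = 1.16e-05 and 4.17e-05) and 1.61-fold and 1.39-fold with WT IL-2 (adjusted p = 6.88e-06 and 2.77e-05). Prkaa1, a catalytic subunit of the kinase AMPK that restrains Acaca, fell, at 20.9 ± 1.82 RPKM with ortho IL-2, 21.7 ± 2.00 with WT IL-2 and 27.0 ± 0.730 without IL-2 (log2 fold changes -0.38 and -0.32, edgeR adjusted p = 0.00293 and 0.0078). Ptplad1, of the dehydratase family that acts in chain elongation, fell by 0.19 and 0.16 on the log2 scale (adjusted p = 0.02 and 0.0494). The synthetase Acsl4 fell with ortho IL-2 (-0.24, adjusted p = 0.0315; -0.12, adjusted p = 0.277 with WT IL-2), and the thioesterase Acot7 with WT IL-2 (-0.28, adjusted p = 0.0207; -0.17, adjusted p = 0.111 with ortho IL-2).

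Fatty acid oxidation, the opposing pathway, had 4 of 17 tested genes higher (23.5%) and 5 lower (29.4%) in each comparison, with a median of 0.04 in both. All tested genes had 28.5% and 27.4% with ortho IL-2 and 25.0% and 22.9% with WT IL-2. Shares so near the background are not in themselves a result about the pathway. Cpt1a, which admits fatty acids to mitochondria, fell, at 15.4 ± 0.925 RPKM with ortho IL-2, 15.3 ± 0.200 with WT IL-2 and 21.7 ± 0.480 without IL-2 (log2 fold changes -0.49 and -0.50, edgeR adjusted p = 3.04e-05 and 2.71e-05). The thiolase Acaa2 rose, at 26.5 ± 1.25, 25.7 ± 1.02 and 19.7 ± 0.950 RPKM in the same order (0.42 and 0.38, adjusted p = 0.000268 and 0.000628). The isomerase Eci1 (0.50 and 0.35, adjusted p = 0.00123 and 0.0099) and the electron carrier subunit Etfb (0.39 and 0.35, edgeR adjusted p = 0.00224 and 0.00466) rose with it. Hadhb, of the trifunctional protein (-0.22 in both, adjusted p = 0.00252 and 0.00323), the dehydrogenase Acadm (-0.36 and -0.33, adjusted p = 0.00492 and 0.00799) and Etfdh, which passes the electrons on (-0.33 and -0.25, edgeR adjusted p = 0.00484 and 0.0236), fell.

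**Figure D5:**
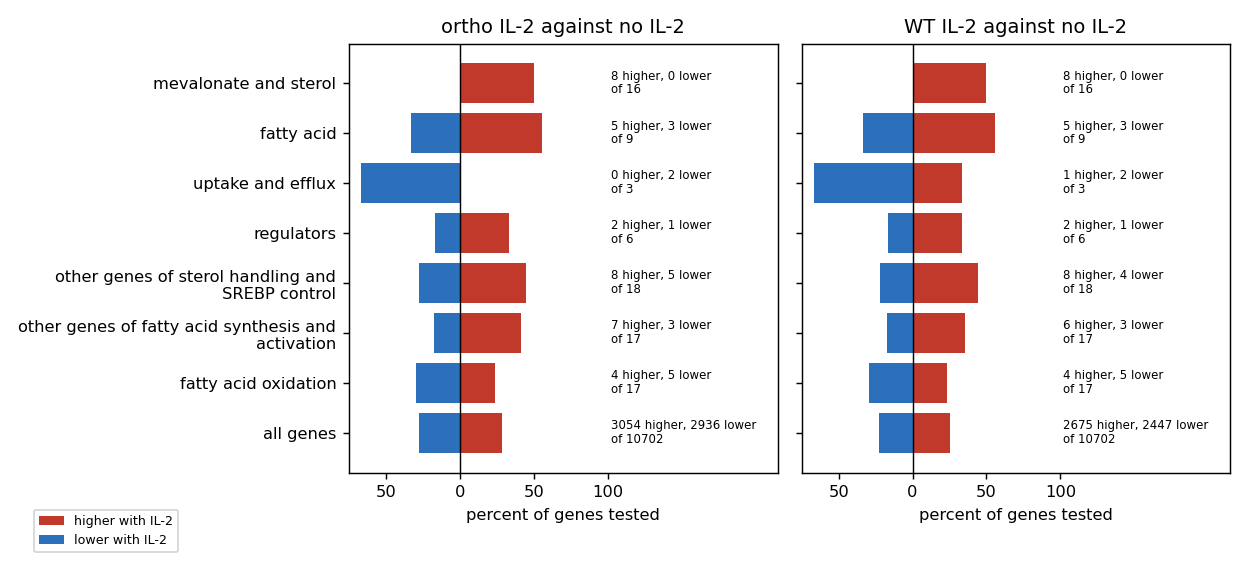
Percent of tested genes higher (red, right) and lower (blue, left) at an edgeR adjusted p below 0.05 in each branch, each related list and all genes, for ortho IL-2 and WT IL-2 against no IL-2. The mevalonate and sterol branch has 8 of 16 genes higher and 0 lower, where all genes have 28.5% higher and 27.4% lower with ortho IL-2 and 25.0% and 22.9% with WT IL-2. Mvd and Hsd17b7, among the 8, entered the test only through libraries with IL-2.

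The order of the members by level per transcript length, in cells without IL-2, began with Elovl5 at 132 ± 2.97 RPKM, Scd2 at 48.7 ± 0.312, Acly at 41.7 ± 1.70 and Nr1h2 at 25.9 ± 1.34, none of which overlapped the next. Stard4, Srebf2 and Abcg1 followed at 22.2 ± 0.495, 21.8 ± 1.19 and 21.1 ± 0.0575 RPKM, with overlapping libraries between neighbours. At the low end were Hsd17b7 (1.01 ± 0.0401), Tm7sf2 (0.928 ± 0.0268) and Fads2 (0.519 ± 0.204). With IL-2, Elovl6 at 53.3 ± 2.99 RPKM (ortho) and 53.5 ± 3.03 RPKM (WT) lay between Scd2 (47.7 ± 0.555 and 48.3 ± 1.59) and Acly (57.9 ± 1.49 and 57.2 ± 0.901), where without IL-2 it had 11.6 ± 0.579 RPKM.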

How the data were processed

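Messenger RNA was sequenced from 9 libraries of mouse Tregs in 3 groups of 3. The deposited tables hold, per the file headers, raw read counts for 31682 RefSeq transcripts and RPKM values, which the authors made by dividing the counts by transcript length and by a number of reads for each library. The submitters' processing notes name the mm10 build and the tools TopHat2, Bowtie2, edgeR, bedtools 2.25.0 and SAMtools 0.1.8. What each did, how reads were counted and whether strand was used is not given in the sources used here, so overlapping genes can share reads. The members and gene lists were chosen with earlier results of these data known.

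For 4343 symbols with several transcripts (8 of them members) the transcript of highest summed reads was taken. Genes with a deposited RPKM of at least 1 in at least 3 libraries (10702) were tested on the counts in R 4.3.3 with edgeR 4.0.16, using TMM scaling, group means over all 9 libraries and its quasi-likelihood test, two-sided, adjusted by the Benjamini-Hochberg method at a threshold of 0.05. Standard errors follow from the p-values. The scripts were tested on simulated data. Alternatives used limma 3.58.1, DESeq2 1.42.0, offsets for transcript GC content (GENCODE M21 sequences) and others named with the limits. All 37 members were named, with per-library values for 9 of the mevalonate and sterol branch and 6 of the fatty acid branch by smallest p and for all regulators and uptake and efflux genes. Acss2, Fads1, Scd2 and Tm7sf2 were added to these after their values were seen. The related genes named were the 3 of smallest p in each direction and comparison. The count floor was 3 reads per library, which covers counting error only. The 95% intervals come from the edgeR fit and so include the spread among libraries.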

Additional observations from a re-analysis of the deposited data

How the results depend on the processing

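Of the called members, 8 of 21 with ortho IL-2 (Mvd, Idi1, Sqle, Acly, Acaca, Fasn, Elovl6 and Abca1) and 11 of 22 with WT IL-2 (the same with Lss, Hsd17b7 and Abcg1) passed in every alternative run in which they were tested. Leaving out each library in turn gave 14 to 18 members higher and 5 to 6 lower with ortho IL-2, 12 to 16 higher and 6 lower with WT IL-2, and 0 between the cytokines. The difference in the share of reads outside genes ranged from -10.78 to -8.51 points in the same way. With that share as a covariate, the ortho IL-2 comparison had 7 members higher and 3 lower, and 9 were higher with WT IL-2. Calls fell over all tested genes too, to 926 higher and 648 lower with ortho IL-2 and to 1217 higher with WT IL-2. Testing only genes with an RPKM of at least 5 left 22 members, 10 of them higher with WT IL-2. On RPKM without scaling between libraries (limma, pseudocounts of 0.5, 0.1 and 1), 27, 26 and 27 members were higher with ortho IL-2 and 1, 1 and 1 lower, and 2, 2 and 2 lower with WT IL-2. There the median of all genes shifted by 0.26 and 0.20 (pseudocount 0.5) and 85.9% and 84% of called genes were higher, against 51% and 52.2%. At that pseudocount 16 of 21 called members with ortho IL-2 and 18 of 22 with WT IL-2 were still called with the same sign. Relative to the shift all 21 and all 22 kept their direction. Taking off the shift is itself a scaling between libraries, so this last count is no independent check. Scd2 turned to 0.24 with ortho IL-2 and to 0.20, 0.20 and 0.19 with WT IL-2, and Insig1 with ortho IL-2 to 0.08, 0.08 and 0.07. With offsets for GC content 42.3% and 43.5% of called genes were higher, Srebf2 lost both calls, Nr1h2 turned to -0.19 with WT IL-2, and Mvk became called lower there (-0.35). Calls were also gained, for Hmgcs1 higher in both comparisons (0.29 and 0.29) and for Cyp51 (0.23) and Stard4 (0.26) higher with ortho IL-2. Correlations of same-numbered libraries of different groups ran from -0.66 to 0.44. They were taken on deviations from means of 3 libraries, so they cannot show whether the numbers pair the libraries, and no label states it. With the replicate block, the ortho IL-2 comparison called 15 members higher and 6 lower and the WT IL-2 comparison 16 and 6, changing no call, and with the block and GC offsets together Scap lost both calls (0.14 and 0.14, adjusted p = 0.05 and 0.0629) and so did Srebf2 (0.10 and 0.10), while Mvk (-0.35) and Nr1h2 (-0.19) were called lower with WT IL-2. There too Hmgcs1 (0.29 and 0.30) was called higher in both comparisons, and Cyp51 (0.23) and Stard4 (0.26) with ortho IL-2. Low reads limit Mvk, Mvd, Tm7sf2 and Fads2. The causes were not tested.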
